A study of Mus musculus with 8 samples.

Results

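The receptors for somatostatin (Sstr1, Sstr2, Sstr3, Sstr4 and Sstr5), cholecystokinin (Cckar and Cckbr) and ghrelin (Ghsr) were followed in cancers of the mouse gastric squamous-columnar junction (SCJ), the border between the squamous forestomach and the glandular stomach. The 8 receptor genes were taken by symbol from the 23361 genes of the expression table. RNA sequencing had been performed on 5 cancers and on 3 samples of control SCJ tissue. The cancers were Trp53-/-Rb1-/- tumors of mice with the alleles Lgr5 eGFP-Ires-CreERT2, Trp53 loxP/loxP and Rb1 loxP/loxP and the Ai9 reporter, in which tamoxifen activates Cre in Lgr5-expressing cells. They were dissected months after induction, along borders drawn by the tdTomato reporter of Ai9. The controls were wild-type SCJ tissue of age-paired mice, and no source used here gives the sex or strain of single samples. The methods state that control mice of the tumor induction experiments also received tamoxifen, without saying whether these wild-type mice were among them. The Cre driver limits recombination to cells that expressed Lgr5 at induction, and in this design the deletions cannot be told apart from the presence of a tumor. The 3 controls came from 3 stomachs, whereas it is not stated that each tumor came from a different animal, so the p-values measure the spread between these samples. Expression is given as FPKM (fragments mapped to a transcript, scaled by its length and by all mapped fragments), in whole numbers that were taken to be rounded values.

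All 8 genes encode receptors that span the membrane and signal through G proteins. The somatostatin receptors couple mainly to Gi/o proteins, which lower cyclic AMP and open inwardly rectifying potassium channels, and in the stomach somatostatin from D cells restrains gastrin, histamine and acid secretion. Cckar prefers sulfated cholecystokinin, whereas Cckbr also binds gastrin and is known from parietal cells and histamine-releasing enterochromaffin-like (ECL) cells, and both couple to Gq/11 proteins. Ghsr is activated by ghrelin, the hormone of gastric X/A-like cells, once ghrelin has been octanoylated.

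The receptor mRNAs of the cancers and of the controls differed. Sstr3 and Sstr1 were listed at 0 in every control and were present in every cancer, Sstr3 at 13 to 37 FPKM and Sstr1 at 4 to 23 FPKM. Sstr2, the receptor for which most clinical somatostatin analogs were designed, was the one somatostatin receptor listed above 0 in the controls, and its mean was 6.67-fold higher there than in the cancers. Cckar had a mean 13.7-fold higher in the controls than in the cancers, and 35.7-fold higher without cancer 4. The folds of Sstr2 and Cckar are of FPKM, and both falls were smaller with each sample rescaled to the same sum. Sstr4 and Ghsr were listed at 0 in all 8 samples. The test was limma on log2(FPKM + 1), with p-values adjusted over the 14357 genes that reached 1 FPKM in at least 3 samples, and 4 of the 6 receptors tested passed an adjusted p of 0.05 (Sstr1 and Sstr3 higher, Sstr2 and Cckar lower in the cancers). Of all genes tested 34.5% passed, 16.2% higher and 18.3% lower in the cancers. Because Sstr1, Sstr3 and Sstr5 entered the test through the cancers alone, the count of receptors called is given as a description and not against that share.

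**Figure D1:**
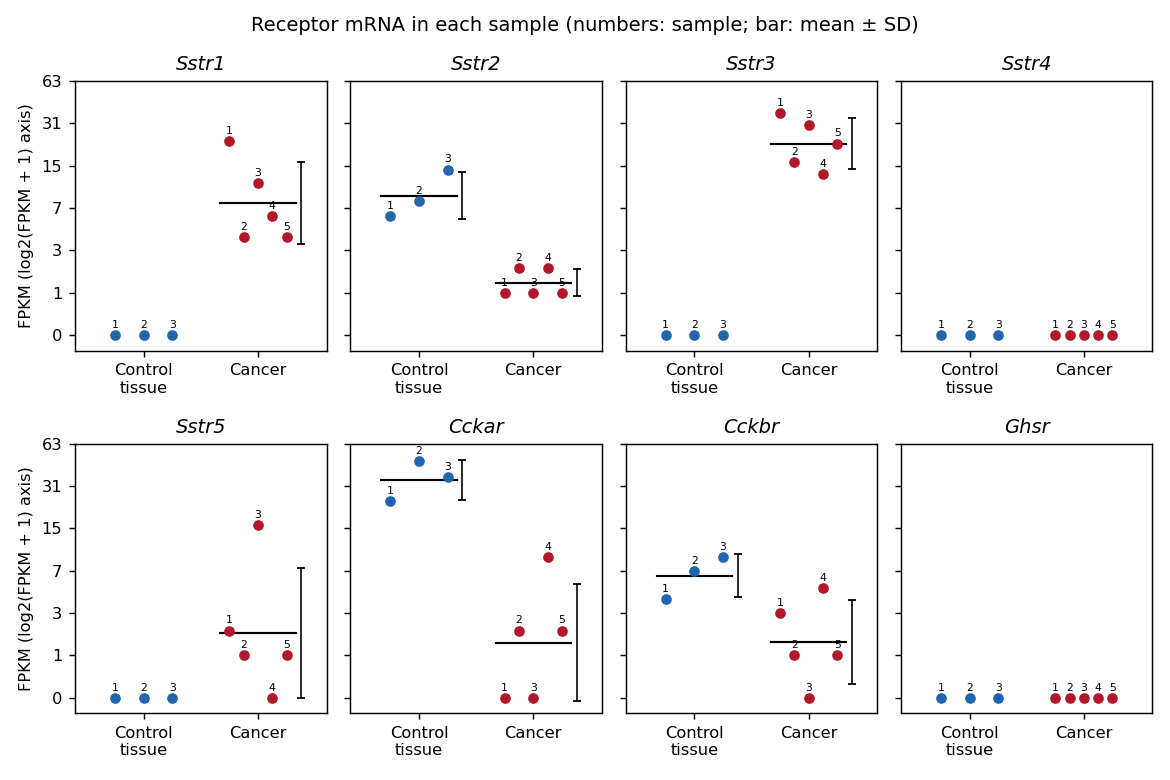
FPKM of the 8 receptors in each sample, on a log2(FPKM + 1) axis, with 3 control tissue samples in blue and 5 cancers in red, and with the mean and SD of log2(FPKM + 1) drawn for groups above 0. Sstr1 and Sstr3 lie at 0 in the controls and above 0 in all cancers, Sstr2 and Cckar lie lower in all cancers than in any control, and Sstr4 and Ghsr lie at 0 throughout.

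The stretches upstream of Sstr2 and Sstr3 are shown because these receptors take the first place among the somatostatin receptors in control tissue and in cancers, respectively. The 250 bases before the RefSeq start of Sstr2 (GRCm38.p6, chr11:113619077-113619326, plus strand) and before the upstream RefSeq start of Sstr3 (chr15:78544346-78544595, minus strand) read as follows, 5′ to 3′ along the gene, with capitals for a cyclic AMP response element (CRE, TGACGTCA) and for GC boxes (GGGCGG or its complement).
Sstr2: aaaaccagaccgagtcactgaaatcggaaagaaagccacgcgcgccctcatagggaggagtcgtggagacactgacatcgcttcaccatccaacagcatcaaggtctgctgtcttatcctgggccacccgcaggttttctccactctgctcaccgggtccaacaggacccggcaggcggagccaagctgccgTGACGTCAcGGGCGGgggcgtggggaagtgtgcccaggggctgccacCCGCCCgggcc
Sstr3: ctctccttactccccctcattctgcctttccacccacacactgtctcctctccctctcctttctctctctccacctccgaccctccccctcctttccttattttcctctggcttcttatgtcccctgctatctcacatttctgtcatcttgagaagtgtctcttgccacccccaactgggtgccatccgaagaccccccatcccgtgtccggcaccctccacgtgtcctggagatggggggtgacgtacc
Sstr2 holds 1 CRE, 58 bases before the start, and 2 GC boxes between the CRE and the start. The Sstr3 stretch holds neither, and the same was true of the 250 bases before the second RefSeq start of Sstr3 (chr15:78541407-78541656) and before the starts of Sstr4, Cckbr and Ghsr. Among 32851 promoter entries of the same length, searched on both strands, 1.55% held a CRE and 32.7% a GC box. The E-box letters CAGCTG (13% of promoters) and CAGATG (14.4%), which proneural factors bind, and TATAAA (12.4%) were found in none of the 6 receptor entries, and these motifs do not overlap each other in either stretch. GC content was 63.6% for Sstr2 and 57.2% for Sstr3, where the median promoter had 52.4%. The promoter table used here covers 5 of the 8 receptors, without Sstr1, Sstr5 and Cckar.

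Sstr3, a Gi/o-coupled receptor known from neuronal primary cilia, had the highest values of the 5 somatostatin receptors in each cancer. Its FPKM was 37, 16, 30, 13 and 22 in cancers 1 to 5, and it was listed at 0 in all 3 controls. The groups did not overlap, as was the case with cancers above controls for 14.4% of all genes tested. On the log2(FPKM + 1) scale the difference was 4.52 (standard error 0.33, limma adjusted p = 0.00044), and no fold is given because the control values are 0. The two-sided exact permutation test over the 56 ways of dividing the 8 samples into 5 and 3 gave p = 0.018, the smallest p this design allows, and the receptor p-values from this test are not adjusted. Sstr3 lies on chromosome 15 from 78537015 to 78544345 (mm10, minus strand) and has 1 coding exon, and the interval of the expression table covers 92.0% of its exonic bases in GENCODE M21.

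Sstr1, which binds somatostatin-14 and somatostatin-28 but few of the short clinical analogs, was the second receptor to appear. Its FPKM was 23, 4, 11, 6 and 4 in cancers 1 to 5 and it was listed at 0 in the controls. Cancer 1 had the highest Sstr1 as well as the highest Sstr3 value, and cancer 3 came second for both. The difference on the log2(FPKM + 1) scale was 3.12 (standard error 0.52, limma adjusted p = 0.0049; exact permutation p = 0.018). Sstr1 has 1 coding exon and lies on chromosome 12 from 58211804 to 58216036 (plus strand), an interval with 98.4% of its exonic bases.

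Sstr2 moved the other way. It had 6, 8 and 14 FPKM in controls 1 to 3 (mean 9.33 ± 4.16, SD, n = 3) and 1, 2, 1, 2 and 1 FPKM in the cancers (1.4 ± 0.548, SD, n = 5). The lowest control was thus well above the highest cancer, and 19.8% of all genes tested lay entirely lower in the cancers in this way. The difference was -2.06 on the log2(FPKM + 1) scale (standard error 0.29, limma adjusted p = 0.0028; exact permutation p = 0.018), a scale that understates the change of a gene this low, and the cancer values of 1 and 2 carry a rounding of up to 0.5. The interval of the table for Sstr2 (chromosome 11, 113624257 to 113625636, plus strand) covers 64.4% of its exonic bases and leaves out the promoter shown above. It lies inside Slc39a11, a zinc transporter gene on the opposite strand, without sharing an exonic base with it. Slc39a11 had 89, 86 and 130 FPKM in the controls and 16, 48, 12, 35 and 24 in the cancers (log2 difference -2.01, limma adjusted p = 0.012). The libraries were strand-specific per the labels, whether the counting used strand is not given in the sources used here, and the part of Slc39a11 reads in the Sstr2 values was not tested.

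Sstr5, which prefers somatostatin-28, was scattered. Its FPKM was 2, 1, 16, 0 and 1 in the cancers, with the high value in cancer 3, and it was listed at 0 in the controls. Cancer 4 was also at 0, so the groups overlapped, and the difference of 1.53 on the log2(FPKM + 1) scale did not pass the test (standard error 0.81, limma adjusted p = 0.17; exact permutation p = 0.125). Without cancer 3 the difference was 0.90. Sstr5 lies on chromosome 17 from 25489875 to 25497288 (minus strand). Sstr4, the receptor closest to Sstr1 in the family (chromosome 2, 148395377 to 148396764, plus strand), was listed at 0 in all samples.

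Set side by side within each sample, FPKM being per length, the somatostatin receptors of the controls consisted of Sstr2 for 100% of the summed FPKM in all 3 samples. In the cancers Sstr3 took 58.7%, 69.6%, 51.7%, 61.9% and 78.6% of the sum (mean 64.1% ± 10.3, SD, n = 5). Sstr1 took 14.3% to 36.5% and Sstr2 1.59% to 9.52%. Sstr5 reached 27.6% in cancer 3, where it came second after Sstr3 and ahead of Sstr1, and it took at most 4.35% in the other cancers. The order in cancers 1, 2, 4 and 5 was Sstr3 and then Sstr1. Summed over the 5 genes, somatostatin receptor FPKM was 63, 23, 58, 21 and 28 in the 5 cancers but 6, 8 and 14 in control tissue, so the total was higher in every cancer than in any control while its members had changed places. As these are bulk tissues, fewer cells of a type and less RNA per cell cannot be told apart for any of these genes.

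**Figure D2:**
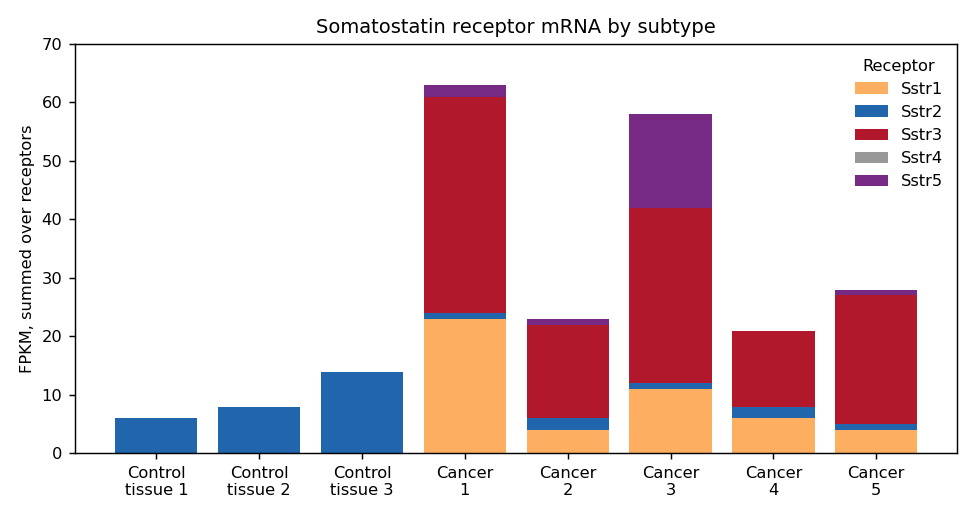
FPKM of the 5 somatostatin receptors stacked for each of the 3 control tissue samples and 5 cancers. The controls are made up of Sstr2 at 6 to 14 FPKM, whereas the cancers reach 21 to 63 FPKM with Sstr3 as the widest band and Sstr2 at 1 to 2 FPKM; Sstr4 is at 0.

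Cckar had the highest level of the 8 receptors in each control. It was at 24, 47 and 36 FPKM in controls 1 to 3 and at 0, 2, 0, 9 and 2 FPKM in cancers 1 to 5. Every cancer lay below every control, cancer 4 coming nearest, and 19.8% of all genes tested lay entirely lower in this way. The difference was -3.85 on the log2(FPKM + 1) scale (standard error 0.75, limma adjusted p = 0.0086; exact permutation p = 0.018), and -4.35 without cancer 4 (adjusted p = 0.0030). With a pseudocount of 0.01 in place of 1 the difference was -6.72 and no longer passed (adjusted p = 0.078). Cckar lies on chromosome 5 from 53698485 to 53707704 (minus strand), with 80.7% of its exonic bases inside.

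Cckbr, the gastrin receptor, was at 4, 7 and 9 FPKM in the controls (mean 6.67 ± 2.52, SD, n = 3) and at 3, 1, 0, 5 and 1 FPKM in the cancers (2 ± 2, SD, n = 5). Cancer 4 was above control 1, so the groups overlapped. The difference of -1.56 (standard error 0.57) did not pass (limma adjusted p = 0.065; exact permutation p = 0.054). Without cancer 4 it was -1.88 and passed (adjusted p = 0.028). Cckbr lies on chromosome 7 from 105425820 to 105436338 (plus strand), with 86.8% of its exonic bases inside. Added together, the cholecystokinin receptors came to 28, 54 and 45 FPKM in the controls and to 3, 3, 0, 14 and 3 FPKM in the cancers. The sum over all 8 receptors was 34, 62 and 59 FPKM in the controls and 66, 26, 58, 35 and 31 FPKM in the cancers, so that the totals overlapped although the genes behind them differed.

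Ghsr (chromosome 3, 27371351 to 27378010, plus strand, with all of its exonic bases inside the interval) was listed at 0 in each sample. Mrap2, an accessory protein that modulates Ghsr, was likewise listed at 0 in all 8. The depth of the libraries is unknown and the values are rounded, so a value of 0 does not show that a transcript was absent.

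Markers of the cell types such tissue can hold were examined beside the receptors, and their counts stand beside 16.2% of all genes tested higher and 18.3% lower in the cancers, a share near which 1 of 4 or 1 of 5 lies. All 7 endocrine markers (Chga, Chgb, Syp, Scg2, Scg3, Neurod1 and Insm1) were higher in the cancers, with a summed FPKM of 8040 to 17891 against 125 to 188, and 1 of the 7, at 0 in every control, entered the test through the cancers alone. Parietal cell markers were summed at 0 to 2203 FPKM in the cancers and at 4075 to 7491 in the controls, and 3 of 5 passed as lower. Cancer 4, which had the highest Cckar and Cckbr of the cancers, also had the highest values of the proton pump subunits among them (Atp4a 810 and Atp4b 1336 FPKM), but the order did not hold throughout. Cancer 1 had both pump genes at 0, with Cckar at 0 and Cckbr at 3 FPKM, the second highest of the cancers, and cancer 3 had Cckar and Cckbr at 0 with Atp4a at 66 and Atp4b at 106 FPKM. Chief cell markers (12 to 7309 against 3462 to 31484 FPKM, 1 of 4 lower), pit cell markers (689 to 65598 against 143964 to 211954, 1 of 4 lower) and squamous markers (0 to 1588 against 1533 to 2572, 1 of 5 lower) were mostly not past the threshold. ECL markers came to 3 to 177 FPKM in the cancers and 11 to 13 in the controls, neither of the pair passing. The part of these cells in the receptor values was not tested. For tissues outside the stomach, the adrenal markers Dbh and Pnmt and the islet marker Ins1 were listed at 0 in every sample. Th, the remaining adrenal marker, was at 9, 8 and 1 FPKM in cancers 1 to 3 and at 0 elsewhere, and Ins2 and Iapp were at 1 FPKM in cancer 2 and at 0 elsewhere. Gcg, which gut endocrine cells express too, took the islet list to 36 to 17445 FPKM in the cancers against 3 to 48. Pancreatic acinar markers came to 2 to 287 FPKM against 56 to 86, 2 of the 3 tested being lower (Pnlip and Ptf1a), with Pnlip at 0 in all cancers and at 1, 2 and 1 FPKM in the controls, through which alone it entered the test, and Ptf1a at 1 FPKM in cancer 4, at 0 in the other cancers and at 2, 1 and 1 FPKM in the controls. The remaining lists were smooth muscle (23 to 1230 against 239 to 401), enteric neurons (2 to 30 against 3 to 6, with Elavl4, at 0 in every control and tested through the cancers alone, higher of 3 tested), adrenal medulla (0 to 9 against 0), hepatocytes (1 to 445 against 1, the high value in cancer 5), leukocytes (7 to 60 against 4 to 5, with Csf1r higher of 3 tested) and endothelium (11 to 37 against 4 to 8, 2 of 3 higher). FPKM summed over all genes to 403569 to 573858 in the cancers and to 887141 to 992550 in the controls, where the 10 most abundant genes took 39.3% to 44.3% of the sum against 11.1% to 19.6% in the cancers. The deleted genes were looked at on the FPKM scale only. Rb1 was at 4, 4, 5, 6 and 4 FPKM in the cancers against 9, 9 and 10 (log2 difference -0.90, limma adjusted p = 0.0059), while Trp53 was at 12, 22, 12, 30 and 12 against 16, 17 and 19 (adjusted p = 0.87), and values per gene do not single out the deleted exons. Falls of this size in Adcy6 (-0.87) and Grk6 (-0.85) turned positive with each sample rescaled to the same sum (TPM). Rb1 and Trp53 were not examined on that scale, so these values do not settle the genotype.

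The ligands of these receptors did not follow one direction. Cck, the cholecystokinin precursor, was at 32719, 7438, 33979, 1507 and 1462 FPKM in cancers 1 to 5 and at 4, 24 and 9 FPKM in the controls. The cancer mean was 1250-fold the control mean (2372-fold without control 2, whose value was the highest of the controls), and the log2 difference was 9.37 (standard error 1.26, limma adjusted p = 0.0027). High ligand thus stood beside low Cckar in every cancer, and cancers 1 and 3, with the highest Cck, were those with Cckar at 0. Ghrl, the ghrelin precursor, was at 2526, 2160 and 3471 FPKM in the controls and at 0, 381, 86, 1330 and 100 FPKM in the cancers. Every cancer lay below every control, as was the case for 19.8% of all genes tested. The difference of -4.97 did not pass (standard error 2.07, limma adjusted p = 0.095, exact permutation p = 0.071), and without cancer 1 it was -3.37 and passed (adjusted p = 0.043). Sst, the somatostatin precursor of D cells, was at 505, 194, 15, 963 and 211 FPKM in the cancers and at 232, 186 and 263 FPKM in the controls. The cancers lay on both sides of the controls, with a difference of -0.17 (standard error 1.19, adjusted p = 0.92) that turned to 0.79 with TPM, to 0.27 with quantile normalization and to 0.74 without cancer 3. Gast, the gastrin precursor, was at 2032 FPKM in cancer 2 and at 7, 1, 1 and 0 FPKM in cancers 1, 3, 4 and 5, against 1, 5 and 0 FPKM in the controls. Its difference of 2.003 (standard error 2.41, adjusted p = 0.53) came down to 0.055 without cancer 2 (adjusted p = 0.97). Cort, which encodes the somatostatin-like peptide cortistatin, was at 1 FPKM in cancer 2, and Leap2, which encodes an antagonist of Ghsr, at 3 FPKM in cancer 5. Both were listed at 0 in every other sample.

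**Figure D3:**
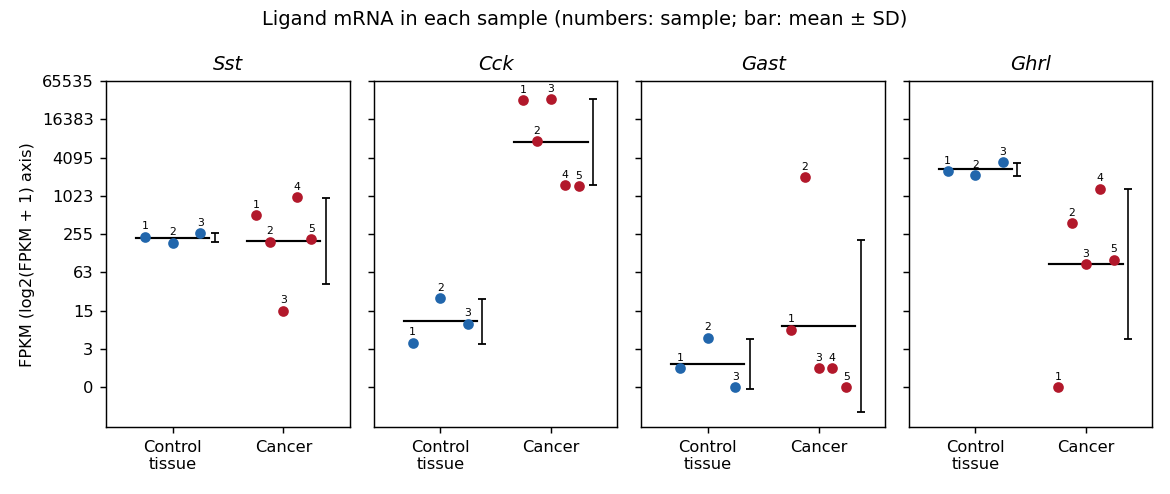
FPKM of the ligand genes Sst, Cck, Gast and Ghrl in each sample on a log2(FPKM + 1) axis, with control tissue in blue and cancers in red, and with the mean and SD of log2(FPKM + 1). Cck is at 1462 FPKM or more in each cancer and at most 24 FPKM in the controls, Ghrl is lower in each cancer than in any control, and Gast is high in cancer 2 alone.

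Enzymes that make the active forms of these peptides were also measured. Pam, which amidates the C terminus that cholecystokinin and gastrin need for activity, was at 425, 137, 394, 185 and 446 FPKM in the cancers and at 30, 30 and 27 FPKM in the controls. The cancer mean was 10.9-fold the control mean (log2 difference 3.26, standard error 0.42, limma adjusted p = 0.0023). The tyrosine sulfotransferases, which give cholecystokinin the sulfate that Cckar prefers, rose too. Tpst1 was at 40, 25, 39, 18 and 19 against 6, 5 and 5 FPKM (log2 difference 2.13, adjusted p = 0.0028). Tpst2 was at 74, 40, 85, 39 and 58 against 8, 9 and 12 FPKM (2.45, adjusted p = 0.0018). For both enzymes every cancer lay above every control, as was the case for 14.4% of all genes tested. Mboat4, the ghrelin octanoyltransferase, was at 1 FPKM in each control and in cancer 4 and at 0 in the other cancers. Its difference of -0.80 passed (adjusted p = 0.045), rests on a single rounding step and did not pass without any one control (adjusted p = 0.12, 0.12 and 0.12 without controls 1, 2 and 3) or without cancer 1, 2, 3 or 5 (0.078, 0.070, 0.088 and 0.076).

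**Figure D4:**
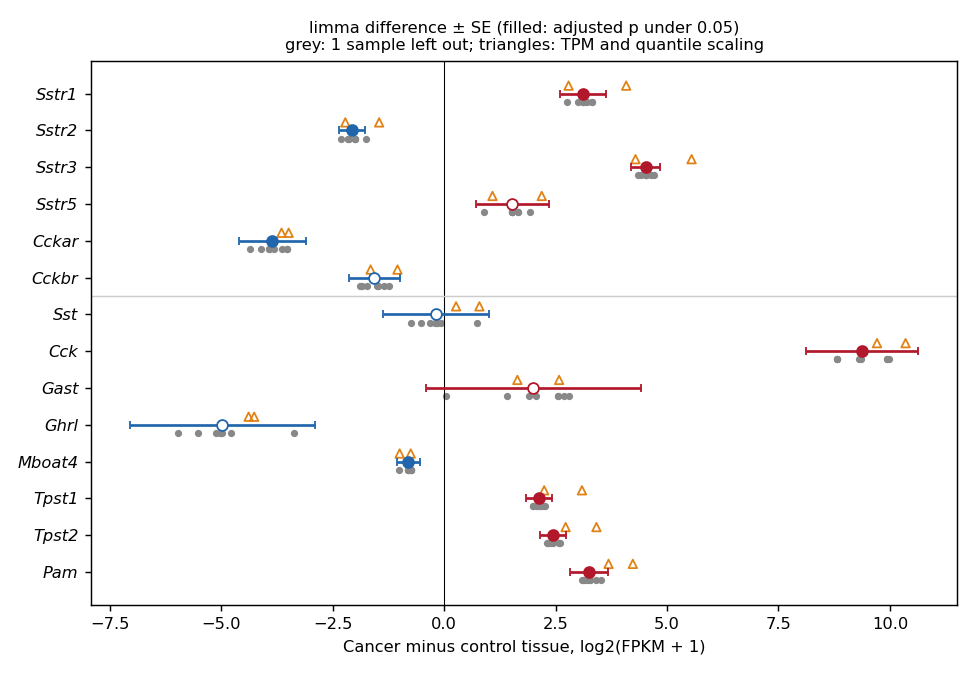
Difference between cancers and control tissue on the log2(FPKM + 1) scale from limma for the tested receptors (above the line) and for their ligands and modifying enzymes (under it), as a point with its standard error, filled where the adjusted p was under 0.05. Grey points leave out 1 sample each and triangles use TPM or quantile normalization; the 6 receptors stay on their side of 0 in each of these, and Sst crosses it.

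Downstream of the somatostatin receptors, the Gi/o alpha subunits had 3 of 5 genes higher and none lower, with a median log2 difference of 0.88 beside -0.038 for all genes tested, of which 16.2% were higher and 18.3% lower. Gnao1, the Go alpha subunit of neurons and endocrine cells, was at 58, 28, 66, 25 and 47 FPKM in the cancers and at 1, 2 and 1 FPKM in the controls (4.22, limma adjusted p = 0.00074). Gnaz was at 10, 4, 10, 3 and 8 against 1, 1 and 1 FPKM (1.88, adjusted p = 0.0090). Of 16 G beta and gamma genes 13 were tested, and 7 were higher and 1 lower (median 0.48). Gng4 rose most, at 102, 35, 71, 18 and 37 against 1 FPKM in each control (4.50, adjusted p = 0.0014), followed by Gng2, at 16, 8, 24, 7 and 13 against 1 FPKM in each control (2.74, adjusted p = 0.0026). Gng12 fell, with 24, 28, 22, 18 and 26 against 40, 44 and 45 FPKM (-0.85, adjusted p = 0.0069). Among 13 tested Gi/o effectors, 1 was higher and 2 were lower (median 0.50), beside 34.5% of all genes tested called in either direction. Of the 13, 4 entered the test through the cancers alone, being at 0 in every control, and the higher call was one of them. Kcnj6, an inwardly rectifying potassium channel opened by G beta-gamma, was at 3, 1, 3, 1 and 3 FPKM in the cancers and listed at 0 in the controls (1.6 on the log2(FPKM + 1) scale, adjusted p = 0.0080). Adcy6, an adenylyl cyclase that Gi inhibits (19, 31, 26, 18 and 25 against 38, 39 and 55 FPKM), fell by 0.87 on the log2 scale (adjusted p = 0.020), and Ptpn11, a tyrosine phosphatase recruited by somatostatin receptors, fell by 0.61 (adjusted p = 0.031).

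The Gq/11 genes lie downstream of the cholecystokinin and ghrelin receptors, and their counts are to be read beside the 16.2% higher and 18.3% lower among all genes tested. Of 4 alpha subunits none was higher and 1 was lower (median -0.65), namely Gna11 with 32, 39, 30, 27 and 29 FPKM in the cancers but 50, 47 and 62 in control tissue (-0.74, limma adjusted p = 0.012). Of 10 tested effectors 2 were higher and 4 lower (median -0.099). Itpr2, a calcium release channel of secretory epithelia, was at 1, 1, 1, 2 and 1 against 4, 9 and 6 FPKM (-1.70, adjusted p = 0.0035), whereas Itpr1 was at 8, 4, 9, 2 and 7 against 1, 2 and 2 FPKM (1.29, adjusted p = 0.045). Protein kinase C genes parted likewise. Prkcd fell, being at 122, 90 and 136 FPKM in control tissue but at 14, 58, 16, 33 and 27 in the tumors (-2.10, adjusted p = 0.012), and Prkcb was at 7, 2, 5, 2 and 7 against 0, 1 and 0 FPKM (2.02, adjusted p = 0.013).

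Among the genes that end receptor signaling, directions depended in part on the scale used. Of 6 tested receptor kinases and arrestins 2 were higher and 2 lower on the FPKM scale (median -0.013). Arrb1 (7, 10, 4, 5 and 6 against 13, 15 and 19 FPKM; -1.21, limma adjusted p = 0.013) and Arrb2 (21, 20, 22, 14 and 17 against 10, 10 and 12 FPKM; 0.75, adjusted p = 0.014), the beta-arrestins that carry receptors into the cell, moved apart. Adrbk2, which encodes the receptor kinase Grk3, was at 18, 6, 20, 12 and 26 against 2 FPKM in each control (2.40, adjusted p = 0.0055), and Grk6 fell by 0.85 on the log2 scale (adjusted p = 0.022). The RGS proteins, which speed up GTP hydrolysis by Gi/o and Gq alpha subunits, had 8 of 16 tested genes higher and none lower (median 1.11), where 16.2% of all genes tested were higher and 18.3% lower. Of the 16, 3 were listed at 0 in every control and entered the test through the cancers alone, and 2 of the 8 were among them. Rgs9 was at 72, 23, 38, 11 and 28 FPKM and listed at 0 in the controls (4.90 on the log2(FPKM + 1) scale, adjusted p = 0.0011), and Rgs16 was at 4, 4, 9, 6 and 36 against 0, 1 and 0 FPKM (2.86, adjusted p = 0.016).

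These directions depend in part on the scale. With each sample rescaled to the same sum (TPM), the median of all genes moved from -0.038 to 0.81, and 7176 of the 14357 genes tested were called higher and 528 lower in place of 2326 and 2622. Relative to that median Gna11 (-0.59), Gng12 (-0.71), Adcy6 (-0.73), Grk6 (-0.72) and Ptpn11 (-0.48) were still lower, but their own differences turned positive with TPM and none of the 5 was called, and none was called with quantile normalization either. Arrb1, at -1.15 relative to the median, also lost its call with TPM, and Itpr1 lost it with quantile normalization. With quantile normalization 1891 of the 14357 genes tested were called higher and 1902 lower. The list counts that follow are to be read beside the counts over all genes on the same scale. The 13 Gi/o effectors had 6 genes higher and 0 lower with TPM and 1 higher and 0 lower with quantile normalization. The 6 receptor kinases and arrestins had 4 higher and 0 lower with TPM and 2 higher and 1 lower with quantile normalization. For the 10 Gq/11 effectors these counts were 3 higher and 2 lower and then 1 higher and 2 lower, and for the 4 Gq/11 alpha subunits 0 on either scale. Higher calls numbered 9 and 7 for the G beta and gamma genes (0 and 1 lower), 4 and 4 for the Gi/o alpha subunits and 11 and 7 for the RGS proteins, with none lower for the last pair of lists. The other gut peptide receptors had 5 higher and 1 lower with TPM and 2 of each with quantile normalization. Of the cell markers, the lower calls of Bhlha15 (chief cells) and Krt4 (squamous epithelium) were lost on both scales, that of Gkn1 (pit cells) and the higher call of Csf1r (leukocytes) with quantile normalization, and that of Ptf1a (acinar cells) with TPM, where 2 in place of 3 parietal markers were lower. The receptors kept their directions on both scales. With TPM the differences were 4.08 for Sstr1, -1.46 for Sstr2, 5.55 for Sstr3, 2.19 for Sstr5, -3.48 for Cckar and -1.04 for Cckbr, and the calls were those of the FPKM scale. The falls of Sstr2 and Cckar were smaller with TPM than on the FPKM scale (-2.06 and -3.85). With quantile normalization they were -2.21 and -3.64. Their folds of 6.67 and 13.7 hold for the FPKM scale alone and rest on cancer means of 1.4 and 2.6 FPKM.

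**Figure D5:**
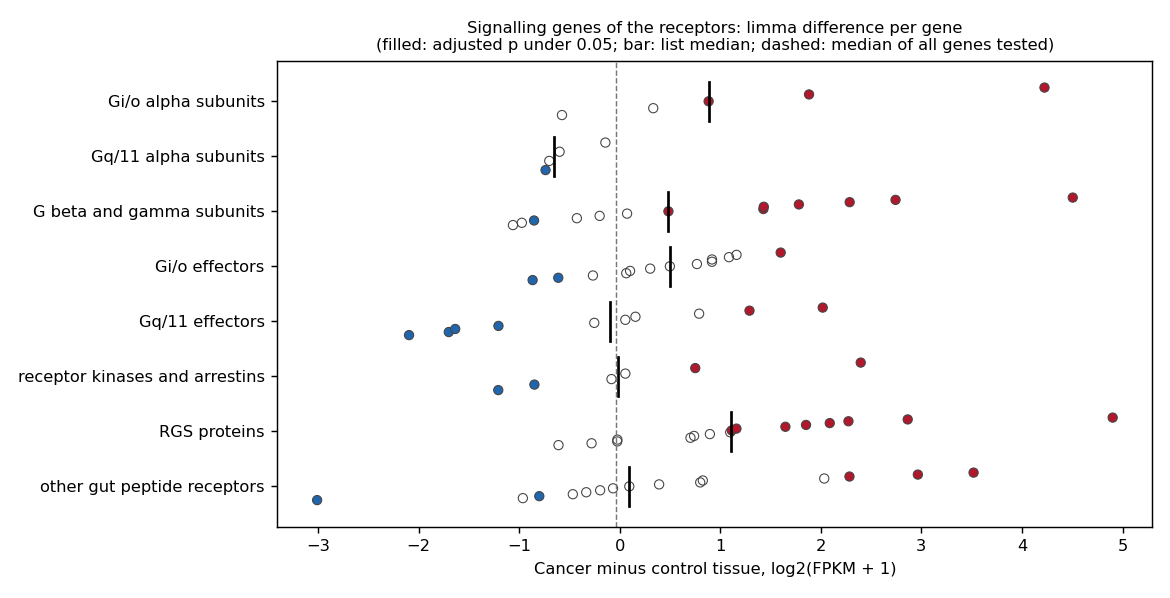
Difference between cancers and control tissue on the log2(FPKM + 1) scale for each tested gene of the G protein subunits, effectors, receptor kinases and arrestins, RGS proteins and other gut peptide receptors, filled where the limma adjusted p was under 0.05, with the median of each list as a bar and that of all genes as a dashed line. Gi/o alpha subunits (median 0.88) and RGS proteins (median 1.11) have calls on the higher side, and the Gq/11 alpha subunits (median -0.65) have their call on the lower side.

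Receptors for other gut peptides gave a mixed picture in which the 8 genes can be placed. Of 28 such receptors 11 were listed at 0 in all samples and 15 were tested, of which 3 were higher and 2 lower (median 0.095), a share near the 34.5% called among all genes. Of the 15, 4 were at 0 in every control and entered the test through the cancers alone, and 2 of the 3 higher calls were among them. Galr1, a Gi/o-coupled galanin receptor, was at 18, 9, 9, 7 and 12 FPKM in the cancers and listed at 0 in the controls (3.52 on the log2(FPKM + 1) scale, limma adjusted p = 0.00056), a pattern of the same kind as Sstr1 and Sstr3. Vipr1, the receptor for vasoactive intestinal peptide, was at 38, 6, 18, 12 and 26 against 1, 2 and 1 FPKM (2.96, adjusted p = 0.0062). The secretin receptor Sctr was at 0, 6, 0, 6 and 4 FPKM in the cancers and at 25, 16 and 31 FPKM in the controls (-3.01, adjusted p = 0.024), and like Cckar it was at 0 in cancers 1 and 3. Oprd1, a delta opioid receptor, was at 1 FPKM in each control and in cancer 2 and at 0 in the other cancers (-0.80, adjusted p = 0.045), a single rounding step that lost its call with TPM (adjusted p = 0.14).

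The genes with the profile most like each receptor were found by the mean absolute difference of centered log2(FPKM + 1) values over the 8 samples, as a description of samples that share their group structure. Tmem163, a zinc transporter of vesicle membranes, was nearest to Sstr3 (mean difference 0.095), with 41, 15, 24, 13 and 25 FPKM in the cancers and 0 in the controls. The next were Gnao1 (0.184) and Gng4 (0.203), both Gi/o signaling genes described above. Sstr1 itself was farther from Sstr3, at 0.709. For Sstr1 the nearest were Bcl6b (0.244), Emb (0.246) and Fgf12 (0.247). Emb, which encodes the cell adhesion protein embigin, was at 219, 44, 108, 53 and 64 FPKM in the cancers and at 11, 11 and 7 in the controls, so that cancers 1 and 3 were highest as for Sstr1. For Sstr2 the nearest were Pld6 (0.137), Arhgef4 (0.186) and Dcbld2 (0.204), and Dcbld2 was at 29, 35 and 38 FPKM in the controls against 6, 9, 7, 12 and 8. For Cckar they were Prima1 (0.4), Pnliprp1 (0.438) and Sdr9c7 (0.462). Pnliprp1, a relative of pancreatic lipase, was at 42, 59 and 54 FPKM in the controls and at 0, 4, 1, 8 and 1 FPKM in the cancers, with cancer 4 again the highest cancer. For Cckbr they were Chst3 (0.302), Gga2 (0.359) and Prnd (0.393), and for Sstr5 Nxf7 (0.332), Prrt2 (0.355) and D630023F18Rik (0.430). Nxf7 shared the high value of cancer 3 with Sstr5, at 23 FPKM there and at 1 to 6 FPKM in the other cancers.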

How the data were processed

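RNA of 5 SCJ cancers and 3 control tissues was purified with the mirVana kit. Libraries were made with a NEBNext directional polyA kit per the labels, whereas the methods name the Illumina TruSeq system. The submitters' processing notes list cutadapt 1.8, TopHat2 2.0.13, Cuffnorm 2.2.1 and mm10. The authors generated FPKM with cuffnorm, and the deposited table is named as FPKM but holds integers (100% of values are whole). The deposited values were handled as a score and taken to be FPKM from cuffnorm that the authors had rounded, which no source used here states, so no count model was used. FPKM is scaled by gene length, a step at low values hides small differences, and depth is unknown, so no interval or detection limit is given.

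Every gene that reached 1 FPKM in 3 or more samples entered a fit of log2(FPKM + 1) by limma 3.58.1 under R 4.3.3, using lmFit and a mean-variance trend in eBayes. P-values were adjusted by Benjamini-Hochberg over these genes (threshold 0.05). An exact permutation test, two-sided, was added for each receptor. The script was tested on simulated data. Receptors and lists were chosen with earlier results of these data known. Genes named are the receptors, ligands and modifying genes, up to 2 called genes with the largest rise and 2 with the largest fall per list, and the 3 genes most like each receptor; the marker genes Atp4a, Atp4b, Pnlip, Th, Ins2 and Iapp and the genes listed at 0 throughout, and Slc39a11, Rb1 and Trp53, are given as checks. Of 178 list entries all were matched, 4 through another symbol. The 3 replicate numbers shared by the groups were not used as pairs in the main fit, and it is not stated whether they pair the samples. Alternatives were pseudocounts of 0.1 and 0.01, other filters, TPM, quantile normalization, no trend, array weights, a replicate block and leaving out each sample. Gene models came from GENCODE M21 and promoters from RefSeq (GRCm38.p6), both with mm10 coordinates.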

Additional observations from a re-analysis of the deposited data

Results flagged for a closer look

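In 4 of 16 receptor, ligand and modifying genes, 1 of the 5 cancers stood apart from the others, with a gap to the nearest sample above 0.71 of the range of log2(FPKM + 1). Chance flags about 1 in 20 groups. For Gast the gap of cancer 2 (2032 FPKM) was 0.727 of the range. For Cort (cancer 2, 1 FPKM), Leap2 (cancer 5, 3 FPKM) and Mboat4 (cancer 4, 1 FPKM) the gap was 1, since the other 4 cancers were listed at 0; any value above 0 gives this gap in whole numbers, and the rate given for chance does not apply to these 3 genes.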

How the results depend on the processing

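The directions of the 6 tested receptors held under every alternative that could test them; Sstr2, Sstr5 and Cckbr, with means under 5, were not tested under the filter on means of at least 5. Between 3 and 6 receptors were called. The number of genes called, 4948 in the report, was 7704 with TPM, 8148 with array weights and 1882 with a replicate block on the 6 samples with shared numbers (4713 with the same samples and no block), and 2490 to 5252 when 1 sample was left out, the lowest without control 1 (2643 without control 2 and 2815 without control 3). It is not stated whether the numbers shared by the groups pair the samples. Same-numbered samples correlated at -0.021, -0.19 and -0.10 in their deviations from the group means. With so few samples these values cannot show that a pairing is absent. With the replicate block Sstr2 was at -2.10 with an adjusted p of 0.053. With array weights Sstr5 (2.29, adjusted p = 0.025) and Cckbr (-1.98, adjusted p = 0.0081) passed, and with a pseudocount of 0.01 Cckar (-6.72) did not. Leaving out 1 sample put Cckbr between -1.88 (without cancer 4) and -1.24, and Sst between -0.74 and 0.74 (without cancer 3). Sst reversed with TPM (0.79) and quantile normalization (0.27). Ghrl passed with array weights (-5.17, adjusted p = 0.013). For each of them the cause was not tested. Of the other results for ligands and modifying genes, Mboat4 lost its call under 9 alternatives. With 0.5 (the rounding limit) added to Sstr3 and taken from the other somatostatin receptors its mean share in the cancers was 67.6%. The opposite shift, chosen after seeing the data, gave 59.6% for Sstr3 in the cancers and 79.8% for Sstr2 in the controls. Unknown depth and rounding limit what can be said of receptors at 0 to 2 FPKM.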
